A study of Mus musculus with 6 samples.

Results

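Collagen VI and a set of other collagens that do not form the main cross-striated fibrils were measured in myotubes and myoblasts. The cells are given as C2C12, a mouse line of muscle precursor cells. Such cells divide as myoblasts and can be made to fuse into myotubes with many nuclei. The 10 genes are COL6A1, COL6A2, COL6A3, COL8A1, COL10A1, COL12A1, COL13A1, COL14A1, COL16A1 and COL21A1. They were chosen by family membership with the signals of this same comparison already known, so their changes and calls are given as a description, with no p-value of a single member, and support nothing. Every probe set annotated with 1 of these symbols and no other was taken, which gave 23 of the 22283 probe sets on the array and 9 of the 10 genes. COL12A1 had no such probe set and was not analysed here. The Affymetrix arrays used carry probes for human transcripts, while the labels name mouse as the organism. From which species the RNA came could not be settled, and gene names are those of the human genes that the probes were designed for. If the RNA was from mouse, how well each human probe set read it is not known here. That limits the signals and the comparison of probe sets of the same gene.

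Total RNA was labelled with biotin, with 3 arrays of myotubes and 3 of myoblasts. The myotubes were cultured with horse serum. The labels give no medium for the myoblasts, and no day of differentiation or genotype. The title of myoblast array 3 does not give the stage, and its group rests on its description. That description is shared by the 3 myoblast arrays and numbers only 2 myoblast samples, so whether array 3 is a sample of its own is not settled by the labels. The labels do not say whether each array had its own culture, so the spread that the p-values rest on may be technical, and their number limits the precision. In RNA from a whole culture, fewer cells that express a gene and less RNA per cell cannot be told apart.

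The deposited value is a MAS5 signal, a brightness on a linear scale. A signal was counted as above background where it exceeded the brightest control probe set for a transcript not added to the sample, which lay between 252 and 1040.2 across the 6 arrays. All myotube arrays shared a chip lot and a scan day that no myoblast array had, so lot, day and group cannot be told apart. By the laboratory codes of the run records, myoblast array 1 belonged to the same run of codes as the 3 myotube arrays, here called the first laboratory series, and myoblast arrays 2 and 3 formed a second. The sample codes in these records do not match the titles of the myoblast arrays. The record of myoblast array 1 carries the code in the title of array 3, that of array 2 the code of array 1, and that of array 3 the code of array 2. The split used here follows the accession under which each record was deposited, and if records were matched by the code in the title instead, myoblast array 3 would belong to the first series and array 1 to the second. Taken across the probe sets tested, and probe sets are not replicates, log2 values of myoblast arrays 2 and 3 correlated at r = 0.988. Other pairs of arrays, within or between groups, lay between 0.737 and 0.890. The median signal was 747, 789 and 641 on myotube arrays 1, 2 and 3, against 665, 518 and 542 on myoblast arrays 1, 2 and 3. Controls added to the samples had geometric means of 71439, 33504 and 12320 on the myotube arrays, against 48119, 3539 and 4275 on the myoblast arrays. What part such differences between arrays have in the changes below was not tested.

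Collagens are trimers of chains that wind into a triple helix. Collagen VI is built from the alpha 1, alpha 2 and alpha 3 chains encoded by COL6A1, COL6A2 and COL6A3, assembles into beaded filaments, and surrounds muscle fibres next to their basement membrane. Mutations in its 3 chain genes cause Ullrich congenital muscular dystrophy and Bethlem myopathy. Collagens XII, XIV, XVI and XXI belong to the FACIT family and its relatives, which attach to the surface of collagen fibrils or to other matrix networks. Collagens VIII and X have short chains that form networks, and collagen XIII spans the cell membrane and sits at the neuromuscular junction.

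Of the 9 genes, each represented by its brightest probe set, 4 were called higher in myotubes (COL6A1, COL6A2, COL16A1 and COL21A1), 1 was called lower (COL13A1), and 4 were not called (COL6A3, COL8A1, COL10A1 and COL14A1). A call is a limma adjusted p under 0.05 over all probe sets tested. Among all 8143 genes tested in that way, 5.42% were called higher and 6.74% lower. Since the genes were picked with this comparison in view, nothing is read from the difference between these shares. The median log2 change of the 9 genes was 0.84, and that of all genes tested was 0.12. Counted by probe set, 15 of the 23 were bright enough to be tested, of which 4 were called higher and 1 lower, beside 4.95% and 6.43% of all 13296 tested. In 6 of the 15 all myotube values lay above all myoblast values and in 1 all lay below, beside 17.5% and 15.5% of all probe sets tested.

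**Figure D1:**
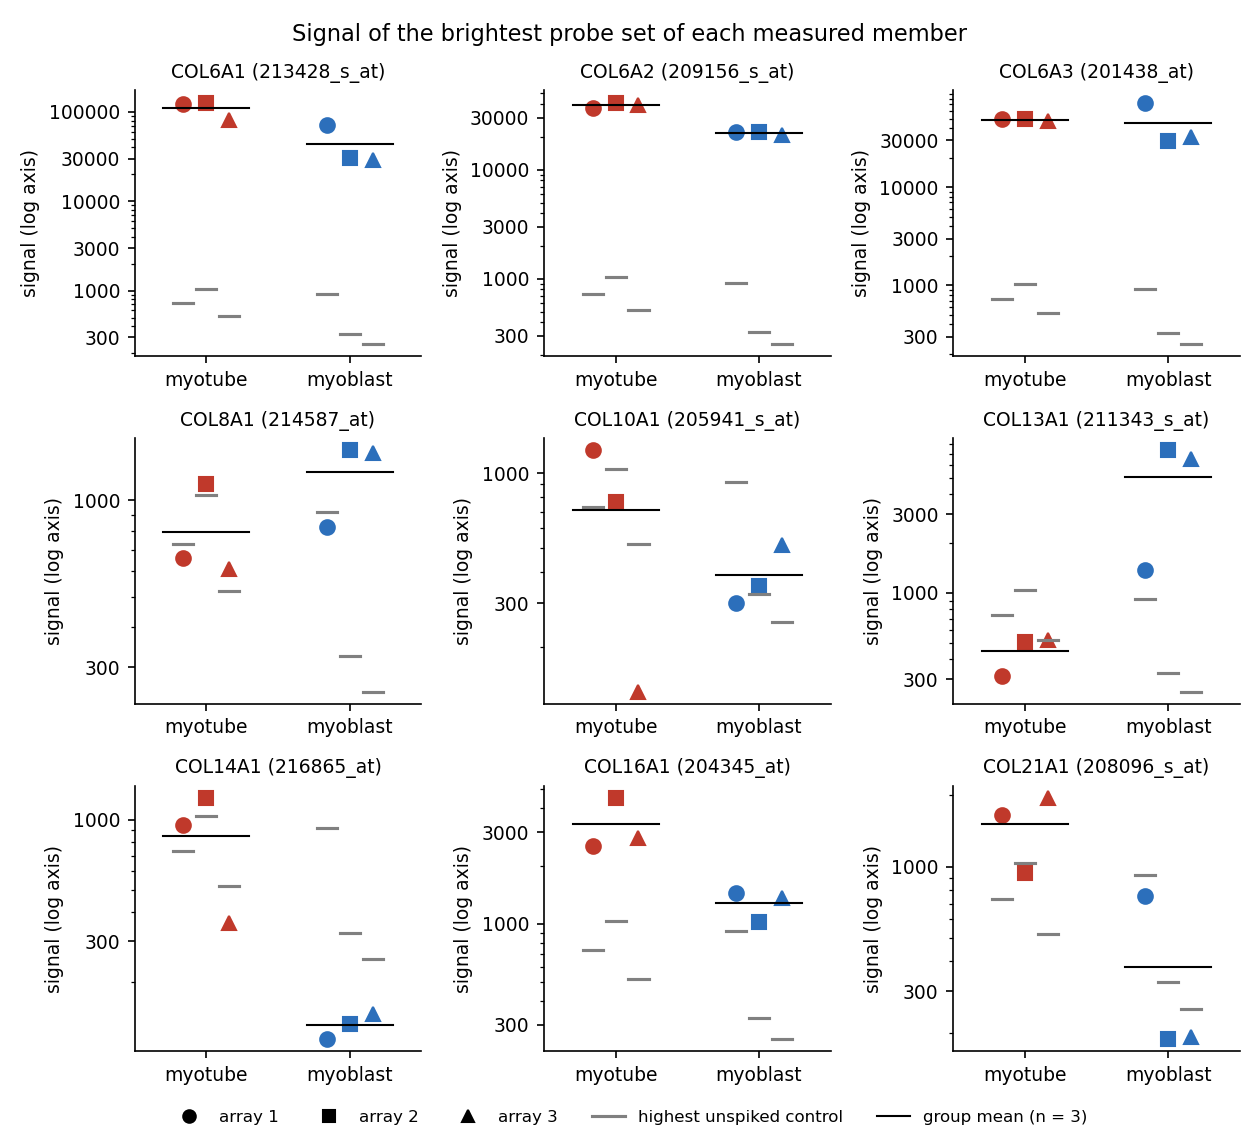
Signal (log axis) of the brightest probe set of each of the 9 measured genes on the 3 myotube arrays (red, left) and the 3 myoblast arrays (blue, right). Black lines are group means (n = 3) and grey ticks the highest unspiked control of each array. COL6A1, COL6A2, COL16A1 and COL21A1 lie higher on every myotube array than on any myoblast array, COL13A1 lower, and COL6A3 on myoblast array 1 (72863) lies above all 3 myotube arrays.

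The collagen VI chains were read by 11 probe sets. COL6A2, the alpha 2 chain, had signals of 36665, 41245 and 38982 on myotube arrays 1, 2 and 3, against 22114, 22168 and 20587 on myoblast arrays 1, 2 and 3. All 3 myotube arrays were higher than all 3 myoblast arrays, and arrays within a group lay close together. The change was 1.79-fold (log2 0.84 ± 0.20 SE). Folds and log2 changes are of signal + 197, which understates the change of dim genes. The other COL6A2 probe set had 2317, 1648 and 1265 on myotube arrays, against 1012, 1351 and 1330.1 on myoblast arrays, with overlap between the groups and a change of 0.42 ± 0.27.

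COL6A1, the alpha 1 chain, was brightest on a probe set with signals of 123199, 127269 and 81429 in myotubes, against 70584, 30342.5 and 29074 in myoblasts. The groups did not overlap, but the lowest myotube array and myoblast array 1 were close. The change was 2.73-fold (log2 1.45 ± 0.39), and after quantile normalization log2 1.04. The other 4 tested probe sets of COL6A1 were not called, at 0.86 ± 0.26, 0.50 ± 0.24, 0.42 ± 0.34 and 0.23 ± 0.24, all positive. They also ordered the myoblast arrays differently. The second brightest had 10329.8, 12369 and 13276 in myotubes and 5876, 10889.7 and 9205 in myoblasts, so myoblast array 1 was its lowest value, while on the brightest probe set myoblast array 1 was the highest of the myoblasts. The next 2 in brightness also had their lowest value there, with 1742 and 1931 on myoblast array 1, against 5358 and 3769 on myoblast array 2. The range of log2 changes over the 5 probe sets was 1.22, where the median range of the 42 genes with 5 tested probe sets was 0.96. The remaining 3 probe sets of COL6A1 averaged below the brightness filter and exceeded background on 1 array at most.

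**Figure D2:**
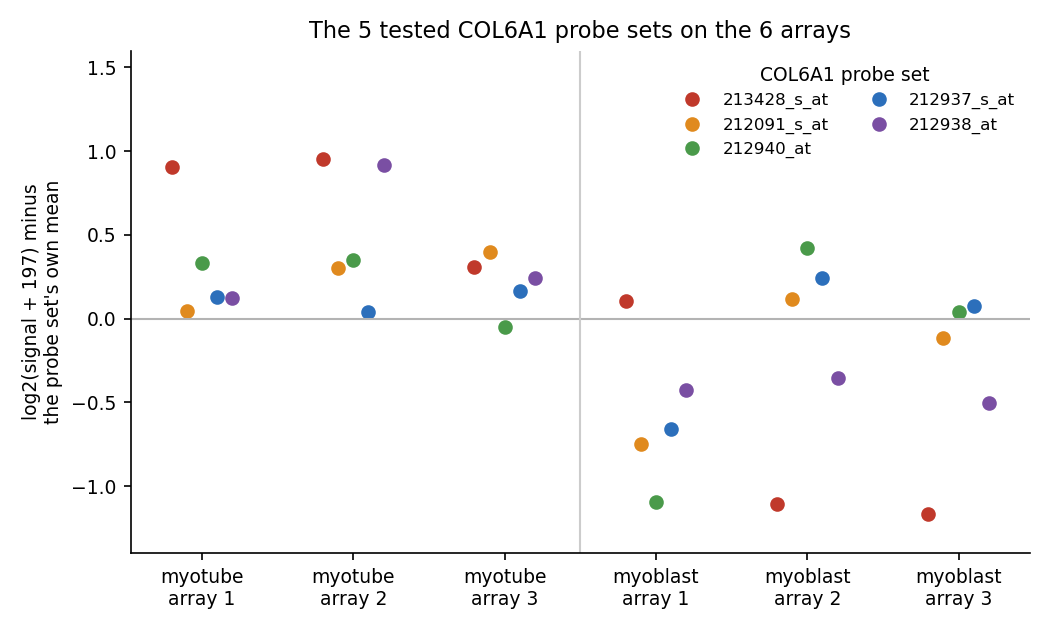
Log2(signal + 197) of the 5 tested COL6A1 probe sets on each array, as the difference from each probe set's own mean over 6 arrays, with myotubes on the left. The brightest probe set (red) is low on myoblast arrays 2 and 3, and 3 of the others (orange, green and blue) are lowest on myoblast array 1.

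COL6A3, the long alpha 3 chain, had a single probe set, with 49588, 49225 and 47809 in myotubes, against 72863, 29855 and 32737 in myoblasts. The myotube values were nearly alike and fell between those of the myoblasts, of which array 1 was far above the other two. Its change was 0.24 ± 0.34, and it differed in sign between the parts of the myoblast group. Myotubes lay 0.57 below myoblast array 1 and 0.64 above the mean of myoblast arrays 2 and 3 on the log2 scale. Without myoblast array 1 it was called higher (0.64). After quantile normalization its change was -0.07. COL6A2 had changes of 0.81 and 0.86 against the same 2 parts of the group, and COL6A1 had 0.62 and 1.86. These values are of the brightest probe sets. Of the other 4 tested probe sets of COL6A1, 2 were higher against myoblast arrays 2 and 3 (0.86 and 0.25) and the other two lay at -0.019 and -0.047, while all 4 were higher against myoblast array 1 (0.77 to 1.31).

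By gene annotation of the mouse assembly GRCm38.p6, Col6a2 and Col6a1 lie near each other on chromosome 10 with 2 annotated genes between them, neither protein-coding, and Col6a3 lies on chromosome 1. Stretches of 250 bases before a RefSeq start of each chain gene (for Col6a2, 1 of 2 listed starts), and before that of Col13a1, the gene with the opposite change, are shown to let the regions be compared. They belong to the labelled species and not to the probes. Of the 10 genes, 7 matched the promoter table. Capitals mark the E-box CANNTG, which helix-loop-helix factors such as MyoD bind, the GC box GGGCGG or its complement CCGCCC, which Sp1 binds, and the TATA box TATAAA or its complement TTTATA.
Col6a1, chr10:76726045-76726294, minus strand: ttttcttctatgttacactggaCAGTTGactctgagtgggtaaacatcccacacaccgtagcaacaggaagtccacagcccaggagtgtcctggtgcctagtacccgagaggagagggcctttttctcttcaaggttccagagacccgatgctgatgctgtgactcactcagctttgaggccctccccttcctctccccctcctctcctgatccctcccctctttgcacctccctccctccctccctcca
Col6a2, chr10:76623405-76623654, minus strand: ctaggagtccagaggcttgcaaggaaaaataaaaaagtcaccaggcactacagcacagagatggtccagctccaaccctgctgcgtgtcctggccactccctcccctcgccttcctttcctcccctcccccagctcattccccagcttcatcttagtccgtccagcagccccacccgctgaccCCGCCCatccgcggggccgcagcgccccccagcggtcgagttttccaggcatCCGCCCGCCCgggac
Col6a3, chr1:90843972-90844221, minus strand: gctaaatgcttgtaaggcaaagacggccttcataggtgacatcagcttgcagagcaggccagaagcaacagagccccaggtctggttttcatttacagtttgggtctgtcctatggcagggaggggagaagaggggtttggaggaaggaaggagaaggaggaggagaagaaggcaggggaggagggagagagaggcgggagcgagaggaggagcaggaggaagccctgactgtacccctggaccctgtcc
Col13a1, chr10:61979109-61979358, minus strand: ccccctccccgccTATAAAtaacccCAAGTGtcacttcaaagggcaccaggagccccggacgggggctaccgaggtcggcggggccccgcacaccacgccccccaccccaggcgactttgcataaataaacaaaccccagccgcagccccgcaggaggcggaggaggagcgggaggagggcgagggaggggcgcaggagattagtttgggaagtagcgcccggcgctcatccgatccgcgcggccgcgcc

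The Col6a1 stretch held 1 E-box and neither of the other motifs. The Col6a2 stretch held 3 GC boxes, of which 2 overlap. The Col6a3 stretch held none of the 3 motifs. The Col13a1 stretch held 1 E-box and 1 TATA box, both far from the start. Of 32851 promoter stretches of the same length in the table, 66.2% held an E-box, 32.7% a GC box and 12.4% a TATA box. A match describes the letters alone, and no motif was shared by the 3 chain genes in these windows.

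Of the FACIT collagens and their relatives, COL16A1, which occurs in several connective tissues, had 2538, 4526 and 2808 in myotubes, against 1450.4, 1021 and 1372 in myoblasts. All arrays were above background and the groups did not overlap. The change was 2.31-fold (log2 1.21 ± 0.26), and it was similar against myoblast array 1 (1.04) and against myoblast arrays 2 and 3 (1.29).

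COL21A1 had 1648, 941 and 1946 in myotubes, against 753, 188 and 193 in myoblasts. No myoblast array and 2 of the 3 myotube arrays were above background. The change was 3.16-fold (log2 1.66 ± 0.44). With the myoblast signals raised to the background of their arrays, and myotube array 2 kept at its measured value below background, it was 2.58-fold, and with all signals raised in that way 2.65-fold. The myoblast mean lay below the brightness filter, which the probe set passed through the myotubes. Against myoblast array 1 alone the change was 0.80.

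COL14A1, a FACIT collagen of tendon and skin that binds decorin, had 953, 1245 and 361 in myotubes on the probe set that passed the filter, against 113, 132 and 146 in myoblasts. The groups did not overlap, but no myoblast array and only myotube arrays 1 and 2 were above background. The change was 1.58 ± 0.47 and was not called. With the myoblast signals raised to background it was 1.52-fold, with myotube array 3 kept at its measured value below background, and with all signals raised 1.66-fold. The probe set passed the filter only through the myotubes, so nothing is read from its call without myotube array 3 (1.98). The change was nearly the same against myoblast array 1 (1.65) as against myoblast arrays 2 and 3 (1.54) on measured signals, but -0.076 and 1.13 with all signals raised to background. A second probe set, below the filter, had 1094, 629.8 and 216 in myotubes, against 32.2, 89.3 and 24.0 in myoblasts. The remaining probe set overlapped between the groups, with 673 on myoblast array 1 and 672 on myotube array 2.

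COL13A1, the transmembrane collagen, was the only one of the 9 called lower. Its brightest probe set had 313, 504 and 522 in myotubes, against 1378, 7354 and 6511 in myoblasts. Every myoblast array was above every myotube array, and myoblast array 1 was far below the other 2 myoblast arrays. In myotubes only array 3 was above background, and barely so (522 where the control lay at 520.1). The fall was 6.77-fold (log2 -2.76 ± 0.51), or -1.31 against myoblast array 1 and -3.49 against myoblast arrays 2 and 3. With all signals raised to background it was 4.59-fold (-2.20), or -0.75 and -2.92 against these arrays. The myotube mean lay below the brightness filter, which the probe set passed through the myoblasts. The other tested probe set of COL13A1 had 1017, 1176 and 454 in myotubes, against 1240.0, 711 and 872 in myoblasts, and did not separate the groups (-0.12 ± 0.37). The gap of 2.64 between the changes of these 2 probe sets compares with a median gap of 0.51 over the 2468 genes with several tested probe sets. The remaining probe set lay just below the filter, with a mean signal of 468 where the filter was 475, and gave 267, 330.0 and 344 in myotubes, against 415, 866 and 587 in myoblasts, without overlap. The dimmest probe set that passed, that of COL14A1, averaged 492.

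COL8A1, a short-chain collagen of vessel walls and of the cornea, had 658, 1127 and 611 in myotubes, against 827, 1437 and 1406.5 in myoblasts. The groups overlapped, and the change was -0.52 ± 0.33. Its second probe set lay below background on all 6 arrays, with 52.7 to 78.3 in myotubes and 148 to 207 in myoblasts. COL10A1, a marker of hypertrophic chondrocytes, had 1237, 766 and 132 in myotubes, against 299.7, 350.2 and 513 in myoblasts. Only 1 myotube array and 2 myoblast arrays were above background, and the change was 0.41 ± 0.54. Its second probe set exceeded background on 1 array, with 1115 on myotube array 2, while the other values lay between 33.0 and 231.

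**Figure D3:**
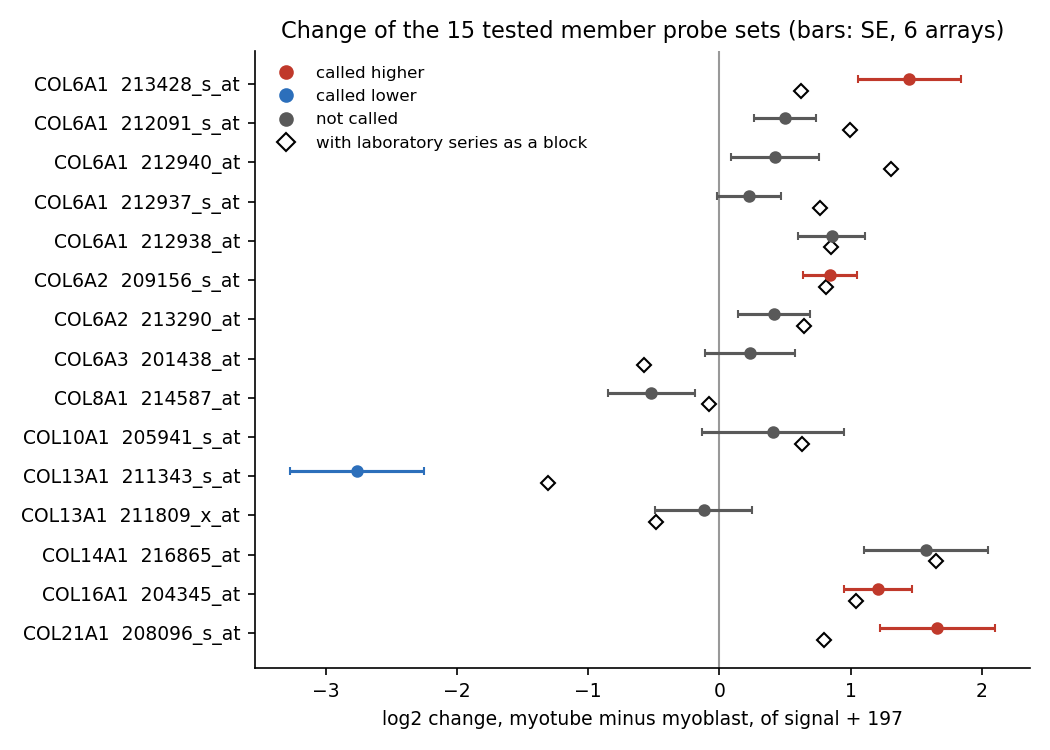
Log2 change, myotube minus myoblast, of signal + 197 for the 15 tested probe sets of the 9 genes. Circles with SE bars come from all 6 arrays, with called probe sets in colour, and diamonds from the fit with laboratory series as a block. COL13A1 has a called fall of -2.76 and an uncalled change of -0.12 on its 2 tested probe sets, and COL6A3 turns negative with the block (-0.57).

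With the laboratory series as a block, a fit that rests on the 3 myotube arrays against myoblast array 1, limma called 0 of the 9 genes by their brightest probe set, while 6 had an unadjusted p under 0.05, as did 18.0% of all genes tested. Among all genes this fit called 1.63% higher and 1.17% lower. The median change of the 9 genes there was 0.63, where that of all genes was -0.0016. By probe set it called 1, a dimmer one of COL6A1 (1.31), which was not called without the block. The brightest COL6A1 probe set had 0.62, COL6A2 0.81, COL16A1 1.04, COL21A1 0.80 and COL13A1 -1.31. With the records matched by title instead, an alternative added after the data were seen, the block rested on myoblast array 3. It also called 1 member probe set, that of COL13A1 (-3.40), with changes of 1.89 for COL6A1, 0.91 for COL6A2, 0.58 for COL6A3, 1.11 for COL16A1 and 2.08 for COL21A1. The share of all probe sets called is not given here for either matching, so nothing is read from the counts by probe set.

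The gap between myoblast array 1 and the mean of myoblast arrays 2 and 3 was 1.24 for COL6A1, 1.22 for COL6A3, 1.29 for COL21A1 and -2.18 for COL13A1 on the log2 scale, against 0.05 for COL6A2, -0.12 for COL14A1 and 0.25 for COL16A1. In 2 of the 9 genes, COL6A3 and COL8A1, this gap exceeded the change between groups, as it did in 49.3% of all genes tested.

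**Figure D4:**
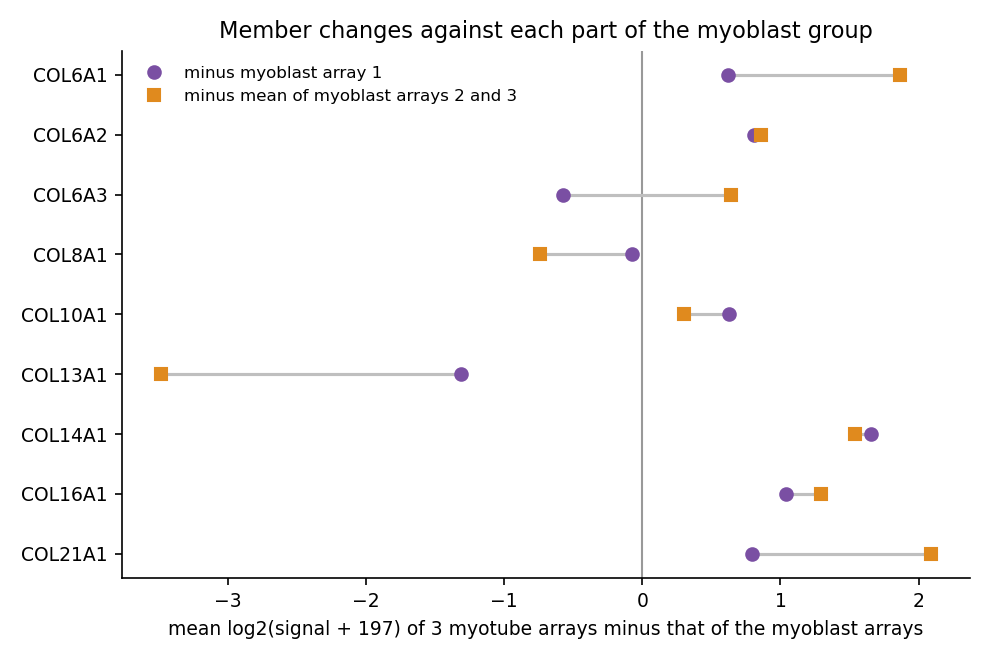
Mean log2(signal + 197) of the 3 myotube arrays minus that of myoblast array 1 (purple circles) or of myoblast arrays 2 and 3 (orange squares), for the brightest probe set of each of the 9 genes. The pair of values nearly coincides for COL6A2 (0.81 and 0.86) and lies on opposite sides of 0 for COL6A3 (-0.57 and 0.64).

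Calls also depended on single arrays. COL6A1 and COL6A2 were no longer called when myotube array 1 or 2 or myoblast array 2 or 3 was left out, with changes between 1.23 and 1.36 and between 0.80 and 0.89. COL13A1 was lost without myotube array 1 (-2.60) or 2 (-2.83), and COL16A1 without myotube array 2 (0.97) or myoblast array 2 (1.07). COL21A1 was called with 1 array left out only when that was myoblast array 1 (2.09), and the other 5 settings gave 1.44 to 1.93. Nothing is read from the calls of COL13A1 and COL21A1 here either, since 1 group alone carried them over the filter.

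Other collagens on the array were grouped by family. Of 8 tested non-fibrillar collagens outside the set, among them the basement membrane chains of collagen IV, 1 rose. This was COL18A1, the source of endostatin, with 1817, 1595 and 1336 in myotubes, against 512, 316 and 363 in myoblasts (log2 1.59 ± 0.31, limma adjusted p = 0.0110). Of 8 tested fibrillar collagens 4 rose, COL11A1, COL3A1, COL5A3 and COL1A1, and none fell. COL11A1 had 3681, 2694 and 4269.8 in myotubes, against 396, 291 and 313 in myoblasts (2.80 ± 0.27, adjusted p = 0.000468). The myoblast means of COL11A1 (333) and COL18A1 (397) lay below the brightness filter, which their probe sets passed through the myotubes. Nothing is read from the calls of these genes, with or without the block, or from the counts above that include them. COL1A1 had 232522, 198052 and 118765 in myotubes, against 99117, 45664 and 50509.6 in myoblasts (1.52 ± 0.43, adjusted p = 0.0474), with 0.83 and no call under the block. COL3A1 rose by 2.69 ± 0.26 and COL5A3 by 2.18 ± 0.27 (adjusted p = 0.000457 and 0.00141), and both were called with the laboratory series as a block (2.16 and 1.64). The change of COL11A1 with the block was 2.64. COL18A1 was not called with the block (1.32, adjusted p = 0.108). Its call ended when myotube array 2, myoblast array 2 or myoblast array 3 was left out (highest adjusted p = 0.0504). The medians of the tested genes were 0.63 for the other non-fibrillar and 1.44 for the fibrillar collagens.

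The genes that make, bind and process collagens were also listed by role. Of 15 tested genes for collagen synthesis and folding limma called 0, and 4 had an unadjusted p under 0.05, as did 31.6% of all genes tested. P4HA1, a catalytic subunit of prolyl 4-hydroxylase, had a change of -0.75 ± 0.25 (adjusted p = 0.0805), and MIA3, which helps to load collagen into transport carriers, had 0.60 ± 0.25 (adjusted p = 0.136). Of 10 tested collagen receptors 1 rose, the collagen uptake receptor MRC2 (0.80 ± 0.17, adjusted p = 0.0148). It was not called under the block (0.79), or when myotube array 2, myoblast array 2 or myoblast array 3 was left out (highest adjusted p = 0.0765). The integrin chain ITGB1 had a change of -0.05 ± 0.25, and CSPG4, a membrane proteoglycan that binds collagen VI, one of -1.34 ± 0.44 (adjusted p = 0.0744). ITGB1 and CSPG4 were singled out after their values were seen.

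Of 11 tested extracellular partners 4 rose. LUM and DCN, small proteoglycans that bind collagen fibrils, rose by 2.09 ± 0.28 and 1.72 ± 0.18 (adjusted p = 0.00220 and 0.000570), and the microfibril protein MFAP5 rose by 1.96 ± 0.27 (adjusted p = 0.00217). DCN had 24972, 22175 and 27545 in myotubes, against 7616, 7752 and 6815 in myoblasts, with no overlap. These 3 were also called with the laboratory series as a block (2.49, 1.68 and 1.48). Of 11 tested genes for collagen processing and crosslinking 4 rose. Among them were MMP2, a gelatinase (2.83-fold, adjusted p = 0.00570), MMP11 (1.29 ± 0.33, adjusted p = 0.0325) and BMP1, the procollagen C-proteinase (1.04 ± 0.20, adjusted p = 0.00967). None of the 3 was called with the block. BMP1 was also not called when myoblast array 2 or 3 was left out (highest adjusted p = 0.0528), nor MMP11 when either of these or myotube array 1 or 2 was (highest adjusted p = 0.147) or when signals were raised to background (0.91). The myoblast mean of MMP11 (317) lay below the brightness filter, which its probe set passed through the myotubes, so nothing is read from its call. The medians of the 4 lists were 0.36, 0.17, 0.86 and 0.70.

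**Figure D5:**
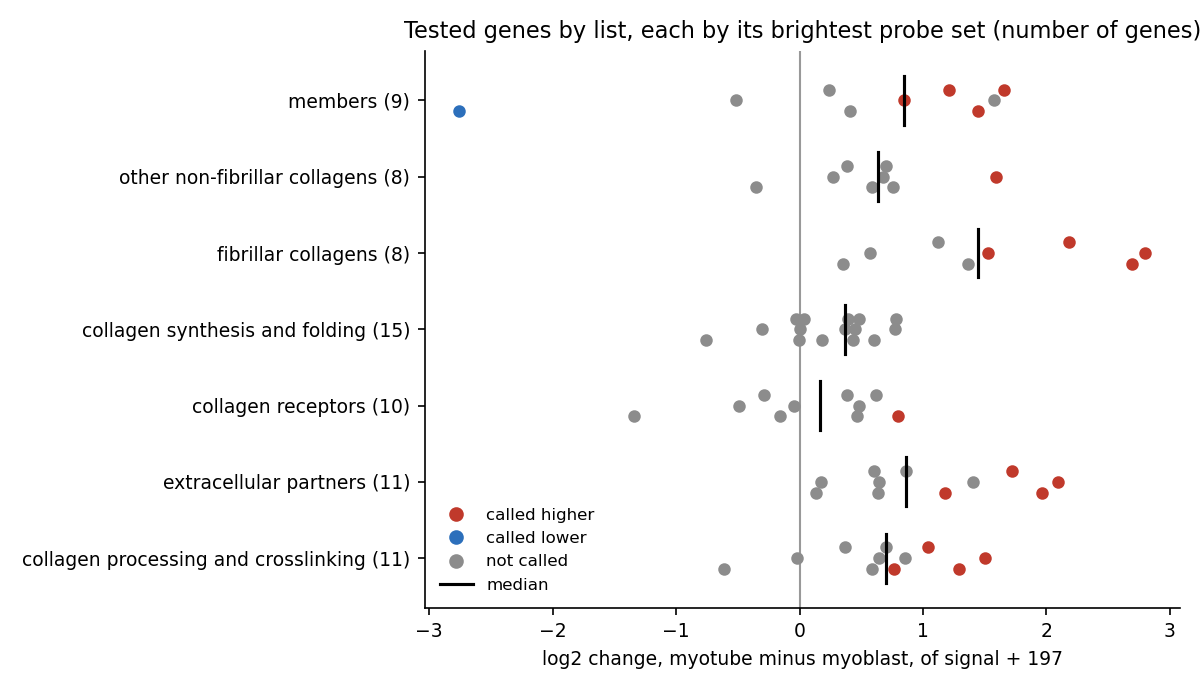
Log2 change, myotube minus myoblast, of signal + 197 for each tested gene by its brightest probe set, in the set described here (9 genes, median 0.84) and in lists of other collagens and of genes that make, bind or process them. Red points were called higher, blue lower and grey not called, and black lines are medians. COL13A1 (-2.76) is the only point called lower.

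Over the 6 arrays the mean profile of COL6A1, COL6A2 and COL6A3, each centred on its own mean, was 0.46, 0.53 and 0.27 in myotubes, against 0.14, -0.69 and -0.71 in myoblasts. The 5 genes nearest to it, by the mean absolute difference of centred log2 values over 6 arrays, were CALCR, ADAMTS2, KRT2, LHX3 and MMP9, with differences of 0.04 to 0.07. ADAMTS2 is a procollagen N-proteinase. All 5 had myoblast array 1 closer to the myotube arrays than to myoblast arrays 2 and 3, which their selection fixed. ADAMTS2 for example had 1618, 1983 and 1413 in myotubes, against 1284, 651 and 665 in myoblasts. The mean profile was not that of each chain, as for COL6A2 myoblast array 1 lay only 0.05 above arrays 2 and 3. CALCR was above background on no myoblast array, and its myoblast mean (336) lay below the brightness filter.

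Markers of cell types were listed as well. Of 15 skeletal muscle markers 8 of 10 tested rose, and the summed signal was 27881 to 30093 in myotubes and 2124 to 8039 in myoblasts. Among them were TNNI1, TNNC1 and MYH3, which encode troponin subunits and embryonic myosin heavy chain and were higher by at least 6.36-fold, 4.73-fold and 6.30-fold with myoblast signals raised to background. DES (0.20 ± 0.71) and MYH8 (0.91 ± 0.39) were tested and not called. CKM, MYF5, MYF6 and MYOG were above background on no array. The myoblast means of TNNC1 (42.3), TNNI1 (63.1), TNNT1 (83.1), MYH3 (182), ACTA1 (231) and MYL1 (454) lay below the brightness filter. These probe sets passed it through the myotubes, and markers with a mean under it were not tested. Nothing is therefore read from the count of muscle markers that rose. Of 11 fibroblast markers 7 of 8 tested rose, where 5.42% of all genes tested were called higher. Among them were S100A4 (2.80 ± 0.21, limma adjusted p = 0.000149), LUM and MFAP5, while PDGFRA was not called (-0.30 ± 0.35). The summed signal was 68638 to 71528 in myotubes and 22631 to 24342 in myoblasts. DPT and TCF21 were above background on no array, and DCN, LUM and MFAP5 are also in the list of extracellular partners. Of 10 chondrocyte and osteoblast markers on the array 1 of 5 tested rose, SPP1 (0.86 ± 0.24, adjusted p = 0.0411), with summed signals of 8998 to 12549 in myotubes and 4139 to 9251 in myoblasts, and IBSP, IHH, MATN1 and MATN3 were above background on no array. SPP1 was called with 1 array left out only when that was myoblast array 1 (highest adjusted p without another array = 0.172). The part of these cell types in the changes of the collagens was not tested.

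In the other marker lists limma called 0 genes. The counts at an unadjusted p under 0.05 stand beside 31.6% of all genes tested. Of 7 endothelial markers 2 were tested, PECAM1 (0.84 ± 0.35) and ERG (0.65 ± 0.51), and 1 had an unadjusted p under 0.05. CDH5, KDR and TIE1 were above background on no array, and summed signals were 2573 to 4948 in myotubes and 1209 to 3262 in myoblasts. Of 6 macrophage and leukocyte markers 2 were tested, ITGAM (0.98 ± 0.34) and CD163 (0.45 ± 0.36), with 1 at an unadjusted p under 0.05. CD14 and PTPRC were above background on no array, and sums were 2586 to 4411 in myotubes and 1361 to 1669 in myoblasts. Of 6 adipocyte markers LPL (0.25 ± 0.38) and PPARG (-0.77 ± 0.56) were tested, with 0 at an unadjusted p under 0.05. ADIPOQ, LEP and PLIN1 were above background on no array, and sums were 1745 to 3143 in myotubes and 2359.9 to 2759.7 in myoblasts. The Schwann cell markers S100B and SOX10 were above background on no array, with sums of 712 to 894 in myotubes and 103 to 183 in myoblasts.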

How the data were processed

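The deposited values are an intensity, 1 for each of 22283 probe sets and array, made by the authors; the submitters' processing notes name MAS5 as the tool. Its settings and version are not given in the sources used here. Chip lots, scan days and laboratory codes came from the deposited run records. Genes were named from the platform annotation of 2016. Control probe sets (68) and sex-linked ones (55) were left out, and the dimmest were not tested (mean signal under 475, the 40th percentile of the means). Values were taken as log2(signal + 197), 197 being the 25th percentile of the table. Myotubes and myoblasts were compared with limma 3.58.1 (R 4.3.3, two-sided moderated test with a mean-variance trend; statmod 1.5.0 for the random block) over 13296 probe sets with Benjamini-Hochberg adjustment. A gene was represented by its probe set with the highest mean. ± after a log2 change is its SE.

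The named genes were all members, up to 3 called genes per direction and list or, where none was called, the 2 with the smallest p, and the 5 nearest profiles. COL1A1 was also named, after its value was seen. Members and lists were chosen with earlier results of these data known. Alternatives covered the pseudocount, filter, scaling, variance model, blocks, single arrays and, added after the data were seen, the matching of run records and a floor at background.

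The fit was tested on simulated data of 13296 probe sets for this comparison. It called 133 of 200 probe sets given a log2 change of 2 (4 others called in error) and 0 of 200 given a change of 1 (0 in error). The noise was drawn independently for each array, with no lot, day or series effect, and only 200 probe sets were changed. These counts therefore do not carry over to the measured data, where COL6A2 was called at 0.84. Figures were drawn with matplotlib 3.10.9. Sequences came from RefSeq (GRCm38.p6).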

Additional observations from a re-analysis of the deposited data

How the results depend on the processing

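The changes of COL6A1, COL6A2, COL14A1, COL16A1 and COL21A1 were positive and those of COL8A1 and COL13A1 negative in all 20 other settings, of which 2 were added after the data were seen (records matched by title, and signals raised to background). The log2 change cannot differ without the filter, without the trend or with the replicate block, so the sign there was fixed in advance. The first series alone gives the same log2 change as the block on laboratory series, so these are not separate settings for the sign. COL6A3 was reversed after quantile normalization (-0.068) and under the block on laboratory series or in its first series alone (-0.57 in both), and COL10A1 without myotube array 1 (-0.039; up to 1.02 without another array). Of the 20 settings, COL13A1 was called in 16, COL16A1 in 14, COL6A2 in 10, COL6A1 in 8, COL21A1 in 7, COL14A1 in 3 and COL6A3 in 1. Nothing is read from these counts for COL13A1, COL14A1 and COL21A1, whose probe sets passed the filter through 1 group alone. ERG was reversed with the series block or the first series alone (-0.19 in both), and LPL after quantile normalization (-0.021) and without myotube array 1 (-0.013; up to 0.43 without another array).

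Of the member probe sets limma called 5 with all arrays, 3 without the filter, 3 without the trend, 1 with the series block under either matching of records, 6 with signals raised to background, 1 with chip lot as a random block and 2 with myoblast arrays 2 and 3 averaged. The first series alone gave 0 (6 at an unadjusted p under 0.05, beside 11.2% of all probe sets). Leaving out 1 array gave 0 (without myotube array 2, where 7 had an unadjusted p under 0.05, beside 22.3% of all) to 7 (without myoblast array 1). Other collagens called numbered 5 with all arrays, 3 with the series block under either matching, the first series alone or chip lot as a random block, and 3 (without myotube array 2 or myoblast array 2 or 3) to 10 (without myoblast array 1) with 1 array left out. Pathway genes called numbered 9 with all arrays, 3 with the series block under either matching, 2 in the first series alone, 4 with chip lot as a random block or with both myoblast arrays averaged, and 4 (without myoblast array 2 or 3) to 21 (without myoblast array 1) with 1 array left out. The member median was 0.63 with the series block (0.91 with records matched by title), in the first series alone and when each gene's probe sets were averaged, and 0.80 to 1.02 with 1 array left out. With all arrays, 4.95% of all probe sets tested were called higher and 6.43% lower. For most of the other settings the share of all called is not given here, so nothing is read from how these counts move. The causes of these shifts were not tested.

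Deviations of same-numbered arrays from their group means correlated at 0.25, -0.18 and 0.38. With 3 arrays per group, these values cannot settle whether same-numbered arrays were paired. The replicate block called 7 member probe sets, 7 other collagens and 14 pathway genes, and the share of all called there is not given either. Dim signals limit COL10A1, COL14A1, COL21A1 and the myotube level of COL13A1, which lay near background.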
